A study of Mus musculus with 16 samples.

Results

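The genes examined were 9 genes of myelin and of the oligodendrocyte, the cell that wraps axons in the brain: Mbp, Mobp, Mog, Mag, Opalin, Cldn11, Cnp, Trf and Sox10. They were chosen by name from the 24421 genes of the count table. All 9 were among the 14565 genes that had more than 10 counts in at least 4 libraries and were tested. RNA-Seq had been run on CD11b+ cells, a microglia-enriched fraction, isolated from the brains of C57BL/6J mice with magnetic bead kits. The labels name the tissue as cortical, whereas the study's methods describe whole cerebra from female mice. Control mice (CON, n = 4) had standard chow from weaning for 1 month. Malnourished mice (MAL, n = 5) had an isocaloric diet low in protein and fat over the same 1 month. MAL-BG mice (n = 7) had the malnourished diet and were also exposed by repeated gavage to a mixture of E. coli and Bacteroidales species. The MAL-BG group therefore differs from MAL by the microbes and from CON by both diet and microbes. The libraries held 10312703 to 13461574 counts in CON, 10864121 to 12819982 in MAL and 14191791 to 18705202 in MAL-BG. The study's code fitted a batch term beside the group, but the labels give no library's batch. No p-value or call here therefore accounts for batch, and without such labels batch and group cannot be told apart. The labels do not say how many mice stand behind each library, so the p-values measure only the spread between these libraries.

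Oligodendrocytes form myelin by wrapping their plasma membrane around axons and pressing the layers together. MBP holds the inner faces of these layers together, and its mRNA, like that of Mobp, is carried along the cell processes and translated close to the growing sheath. MOG and MAG are surface proteins at the outer and the axon-facing side of the sheath, respectively. CLDN11 forms the tight junctions that seal it. CNP is an enzyme of the non-compact cytoplasmic channels. SOX10 is the transcription factor that oligodendrocytes need to differentiate and to switch on myelin genes. Microglia, the brain's resident macrophages, are not myelin-forming cells but engulf myelin. In bulk libraries, fewer cells of a type and less RNA per cell cannot be told apart.

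SOX proteins bind a short core, and the promoters of 4 of the genes are shown because they differ in how often that core occurs. Each sequence is the 250 bases before a RefSeq transcript start in GRCm38.p6, read 5′ to 3′ on the gene's strand. Capitals mark ACAAAG on either strand, the latter read as CTTTGT.
Mobp (chr9:120149492-120149741, plus strand): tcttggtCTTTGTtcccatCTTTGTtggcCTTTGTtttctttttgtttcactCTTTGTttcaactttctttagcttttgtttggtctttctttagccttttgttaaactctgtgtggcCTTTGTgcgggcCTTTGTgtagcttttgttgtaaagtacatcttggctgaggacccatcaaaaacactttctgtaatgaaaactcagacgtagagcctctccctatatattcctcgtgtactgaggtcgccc
Mag (chr7:30914923-30915172, minus strand): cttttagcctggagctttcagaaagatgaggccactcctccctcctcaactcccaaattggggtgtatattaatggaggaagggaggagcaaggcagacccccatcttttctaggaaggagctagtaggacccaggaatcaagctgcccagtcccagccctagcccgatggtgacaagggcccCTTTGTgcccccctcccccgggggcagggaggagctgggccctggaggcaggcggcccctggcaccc
Opalin (chr19:41077114-41077363, minus strand): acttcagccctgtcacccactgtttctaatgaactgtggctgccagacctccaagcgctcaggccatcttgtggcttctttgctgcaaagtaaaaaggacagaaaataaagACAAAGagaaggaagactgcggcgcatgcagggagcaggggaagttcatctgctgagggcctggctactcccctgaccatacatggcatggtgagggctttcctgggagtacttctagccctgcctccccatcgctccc
Mog (chr17:37023399-37023648, minus strand): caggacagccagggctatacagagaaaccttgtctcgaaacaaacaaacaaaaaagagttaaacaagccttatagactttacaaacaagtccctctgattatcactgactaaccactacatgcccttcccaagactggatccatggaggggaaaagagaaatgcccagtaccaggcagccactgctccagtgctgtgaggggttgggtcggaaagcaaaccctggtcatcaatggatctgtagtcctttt
The Mobp window held 6 matches, lying 120 to 243 bases before the start. The Mag window shown held 1 match at 67 bases, while of the windows of the other two Mag starts one held the same match and one held 0. Of the others, Opalin held 1 at 139 bases and Mog held 0. Among the 6 genes of the set with an entry in the promoter table, Cnp also held 1 match, and Cldn11 held 0. Of all 32851 promoters of this length, 16.5% held ACAAAG. The related core ACAATG and the E-box CAGCTG, which occurred in 10.7% and 13% of all promoters, were not in the letters of any of these 6 genes' windows. A match describes letters in the window and is no evidence that a factor binds there.

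Together, the 9 genes supplied a small share of each library. Their summed level, in CPM (read counts scaled to a common library size, with TMM factors), was 1721 ± 297 for the CON libraries (SD, n = 4), 1727 ± 199 for MAL (SD, n = 5) and 2160 ± 280 for MAL-BG (SD, n = 7). Trf made up most of this sum. Without Trf and Cldn11, both of which are also known from non-oligodendrocyte cells of the brain and its coverings, the sums were 587.5 ± 293 CPM (CON), 647 ± 153 CPM (MAL) and 639 ± 280 CPM (MAL-BG).

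Levels were compared between genes as CPM per kilobase of annotated exon, averaged over the 16 libraries. Trf, which encodes the iron carrier transferrin, was highest at 383 ± 90.6 (SD), and Mbp followed at 52.7 ± 26.8. Cnp lay at 25.1 ± 4.0, Mag at 12.8 ± 5.14, Cldn11 at 7.37 ± 4.26 and Mobp at 4.35 ± 2.42. Mog at 2.61 ± 1.12, Sox10 at 1.0 ± 0.394 and Opalin at 0.516 ± 0.223 were the lowest. Most of this order held library by library. Trf exceeded Mbp, and Cnp exceeded Mag, in 16 of 16 libraries, and Mag exceeded Cldn11 in 15. Mbp exceeded Cnp in 13 of 16 but in only 4 of 7 MAL-BG libraries. Cldn11 against Mobp and Mobp against Mog were each in that order in 10 of 16, so these neighbours overlapped. In MAL-BG, Mobp exceeded Mog in 2 of 7 libraries, and Cldn11 exceeded Mobp in 7 of 7.

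**Figure D1:**
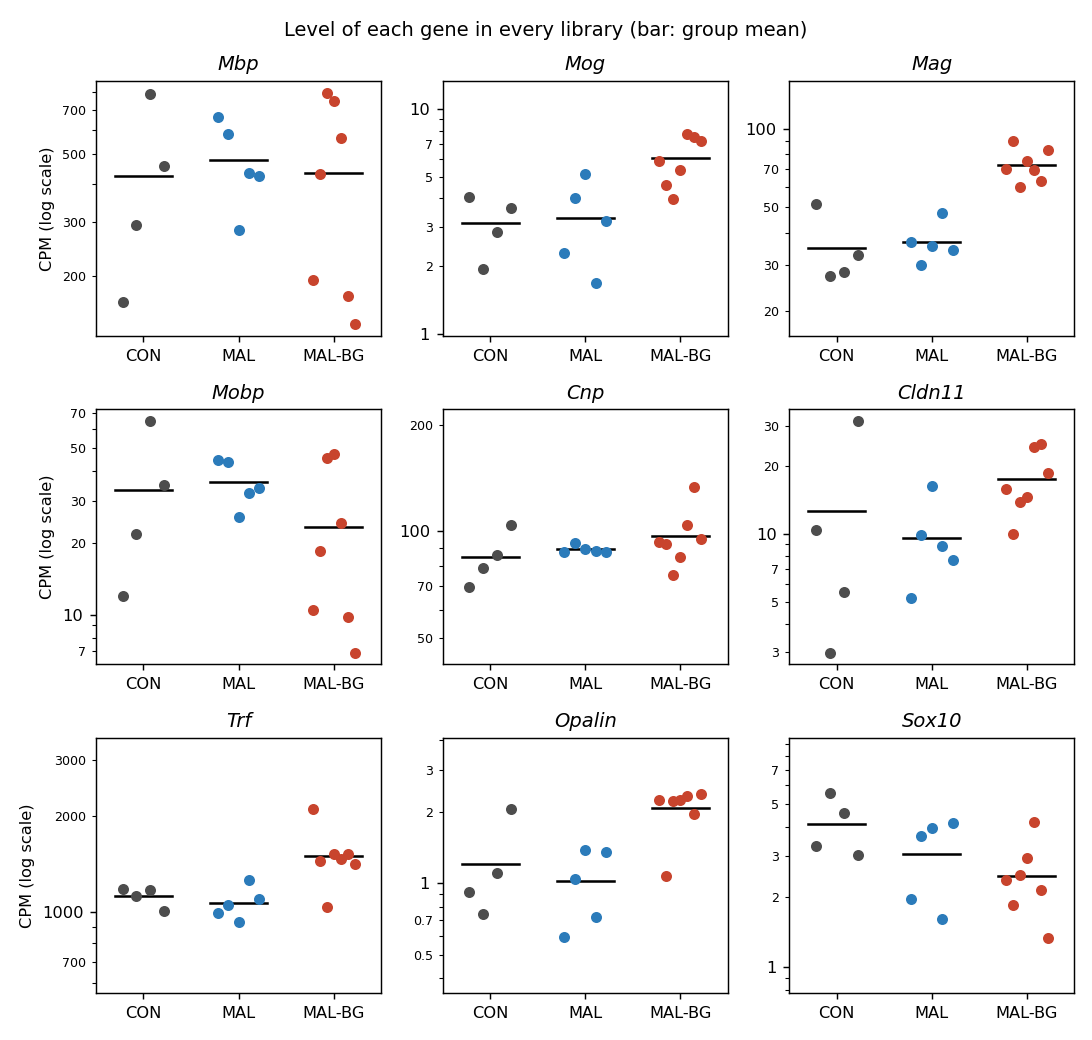
CPM (log scale) of each of the 9 genes in every library of CON (4 points), MAL (5 points) and MAL-BG (7 points), with a bar at the group mean. The 7 MAL-BG values of Mag lie above all 9 others, Mog and Opalin sit higher in MAL-BG with overlap on this TMM scale, and Mbp and Mobp scatter widely inside each group.

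Mag was the only member with every MAL-BG library above all of CON and MAL, while CON and MAL overlapped. Its levels in CON were 51.3, 27.4, 28.4 and 32.9 CPM. In MAL they were 36.8, 29.99, 35.6, 47.5 and 34.3 CPM. In MAL-BG they ran from 59.6 through a median of 70.3 to 89.6 CPM. The lowest MAL-BG library thus lay above the highest of the other 9. Among all genes tested, 6.17% had every MAL-BG library above the other 9. The log2 fold change of Mag was 1.06 (SE 0.177, edgeR adjusted p = 0.000253) against CON and 0.98 (SE 0.163, adjusted p = 0.000244) against MAL. When libraries were instead scaled to a list of microglia genes, the difference was 0.02 against CON and within rounding of 0 against MAL.

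Mog is expressed late in myelination and is a well-known autoantigen in demyelinating disease. Its levels were 4.07, 1.95, 2.84 and 3.63 CPM in CON and 2.30, 4.03, 5.16, 1.69 and 3.19 CPM in MAL. The MAL-BG libraries ran from 4.0 through a median of 5.90 to 7.70 CPM. All 7 lay above the mean of CON and above that of MAL, but the lowest overlapped both groups. These levels rest on 21 to 142 counts per library. Mog rose by 0.95 on the log2 scale against CON (SE 0.309, edgeR adjusted p = 0.0201) and by 0.88 against MAL (SE 0.285, adjusted p = 0.0192). The call against CON was lost without CON replicate 2 (0.77, adjusted p = 0.0822) or CON replicate 3 (0.89, adjusted p = 0.061). The call against MAL was lost without MAL replicate 1 (0.77, adjusted p = 0.0582) and with libraries scaled by total counts (0.73, adjusted p = 0.0521), and on the microglia scale the differences were -0.09 and -0.20.

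Opalin, a transmembrane protein found in mature oligodendrocytes, was the lowest of the set. Its levels were 0.921, 0.742, 1.10 and 2.04 CPM in CON and 0.596, 1.04, 1.38, 0.725 and 1.35 CPM in MAL. MAL-BG ran from 1.07 through 2.24 to 2.37 CPM, with 6 of the 7 libraries above all of MAL. Counts were 7 to 43 per library. Against MAL, Opalin had a log2 fold change of 1.01 (SE 0.325, edgeR adjusted p = 0.0186), which was called higher, and against CON one of 0.77 (SE 0.346, adjusted p = 0.0798), which was not. The latter result turned on single libraries. Without CON replicate 4, the highest of its group, the difference from CON was 1.14 (adjusted p = 0.0234), and without MAL-BG replicate 2, the lowest of its group, it was 0.94 (adjusted p = 0.0293). Without MAL replicate 1 the call against MAL was lost (0.86, adjusted p = 0.0566). On the microglia scale the differences were -0.34 against CON and -0.02 against MAL.

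Cldn11 is also made by cells of the meninges. Its CON levels were 10.4, 2.97, 5.52 and 31.6 CPM, which is the widest spread relative to its mean that any of the 9 genes had within CON. MAL held 5.19, 9.85, 16.3, 8.86 and 7.64 CPM, and MAL-BG ran from 9.96 through 15.7 to 25.1 CPM. CON replicate 4 thus lay above every MAL-BG library, while the other CON libraries lay at 10.4 CPM or below. Cldn11 differed from CON by 0.46 on the log2 scale (SE 0.471, adjusted p = 0.445) and from MAL by 0.87 (SE 0.446, adjusted p = 0.122), neither called by edgeR. Without CON replicate 4 it was 1.46 against CON (adjusted p = 0.0116) and 0.86 against MAL (adjusted p = 0.0412), both called. The summed fibroblast and meninges list ran the other way, at 948 ± 352 CPM for CON, 804 ± 352 for MAL and 310 ± 147 for MAL-BG, and its part in the Cldn11 values was not tested.

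The pair of compact-myelin genes showed no group difference that passed the test. Mbp was at 163, 294, 788 and 458 CPM in CON and at 662, 585, 284, 435 and 425 CPM in MAL. In MAL-BG it ran from 138 through 432 to 798 CPM, so MAL-BG held both the lowest and the highest library. Its log2 fold change was 0.03 against CON (SE 0.480, adjusted p = 0.964) and -0.14 against MAL (SE 0.447, adjusted p = 0.825). Mobp was at 11.98, 21.8, 64.9 and 35.1 CPM in CON, at 44.8, 43.6, 25.7, 32.5 and 34.0 CPM in MAL, and from 6.90 through 18.5 to 47.5 CPM in MAL-BG. Here 5 of the 7 MAL-BG libraries lay below every MAL library. Mobp had log2 fold changes of -0.53 against CON (SE 0.491, adjusted p = 0.401) and -0.63 against MAL (SE 0.461, adjusted p = 0.272). With SEs of this size, a moderate change in either direction would not have been detectable.

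The number of Mbp reads per Mobp read was far steadier than either gene. It was 13.1 ± 0.683 in CON (SD, n = 4) and 13.03 ± 1.38 in MAL (SD, n = 5), with single libraries from 11.0 to 14.8. In MAL-BG it was 19.5 ± 3.0 (SD, n = 7), from 15.7 to 23.5, which overlapped neither other group. The ratio was chosen after its values were seen and has no test. It does not depend on how libraries are scaled.

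Cnp was the steadiest member, with a 1.93-fold range over the 16 libraries beside 10.7-fold for Cldn11 and 9.41-fold for Mobp. Its levels were 69.4, 78.9, 86.0 and 104 CPM in CON, 87.3, 92.4, 89.4, 88.1 and 87.6 CPM in MAL, and 75.1 through 93.3 to 134 CPM in MAL-BG. Cnp differed by 0.19 on the log2 scale from CON (SE 0.136, adjusted p = 0.258) and by 0.12 from MAL (SE 0.127, adjusted p = 0.444). Its exons overlap those of Dnajc7, a chaperone gene on the opposite strand, by 154 bases. The strand setting of the counting is not given in the sources used here, so reads in that stretch cannot be assigned to a gene. Dnajc7 was called higher in MAL-BG against CON (log2 fold change 0.78, SE 0.198, adjusted p = 0.00441).

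Trf is made by oligodendrocytes and by the choroid plexus, the tissue that secretes cerebrospinal fluid. Its levels were 1184, 1122, 1171 and 1007 CPM in CON and 997, 1054, 930, 1267 and 1104 CPM in MAL. MAL-BG ran from 1036 through 1469 to 2115 CPM, and 6 of the 7 libraries lay above all of CON and MAL. Trf had log2 fold changes of 0.42 against CON (SE 0.155, adjusted p = 0.0343) and 0.49 against MAL (SE 0.144, adjusted p = 0.0113). Both passed the adjusted p in edgeR but stayed under the fold threshold of 0.58 on the log2 scale, so neither was called. Of all genes tested, 19.8% passed the adjusted p alone and were higher against CON, and 20.2% did so against MAL. On the microglia scale, Trf had log2 fold changes of -0.66 against CON (adjusted p = 0.000344), called lower, and -0.51 against MAL (adjusted p = 0.00177), under the fold threshold. On that scale 77.6% of all genes tested were called lower against CON and 74.6% against MAL. The median log2 fold changes of all genes were -1.11 and -1.02. The summed choroid plexus list fell from 32641 ± 16794 CPM in CON and 26804 ± 16499 in MAL to 6384 ± 4962 in MAL-BG, with 14 of its 14 genes called lower against CON. That list and Trf moved in opposite directions on the TMM scale. On the microglia scale Trf was lower in MAL-BG, as most genes tested were. The part of the choroid plexus in the Trf values was not tested. A predicted gene, Gm20425, shares 2108 exon bases with Trf on the same strand but is not among the genes of the count table. Whether this overlap affected the counting of Trf reads was not tested.

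Sox10 was at 3.30, 5.57, 4.57 and 3.03 CPM in CON and at 1.96, 3.66, 3.96, 1.61 and 4.14 CPM in MAL. MAL-BG ran from 1.34 through 2.36 to 4.18 CPM, with 6 of the 7 libraries below all of CON. Sox10 had log2 fold changes of -0.73 against CON (SE 0.326, edgeR adjusted p = 0.0781) and -0.31 against MAL (SE 0.311, adjusted p = 0.435). Neither was called. Without MAL-BG replicate 5, the highest of its group, the difference from CON was -0.93 (adjusted p = 0.0256). Thinned to equal depth, it was -0.74 (adjusted p = 0.047). The fold changes of Sox10 were negative against both groups under each scaling tried.

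**Figure D2:**
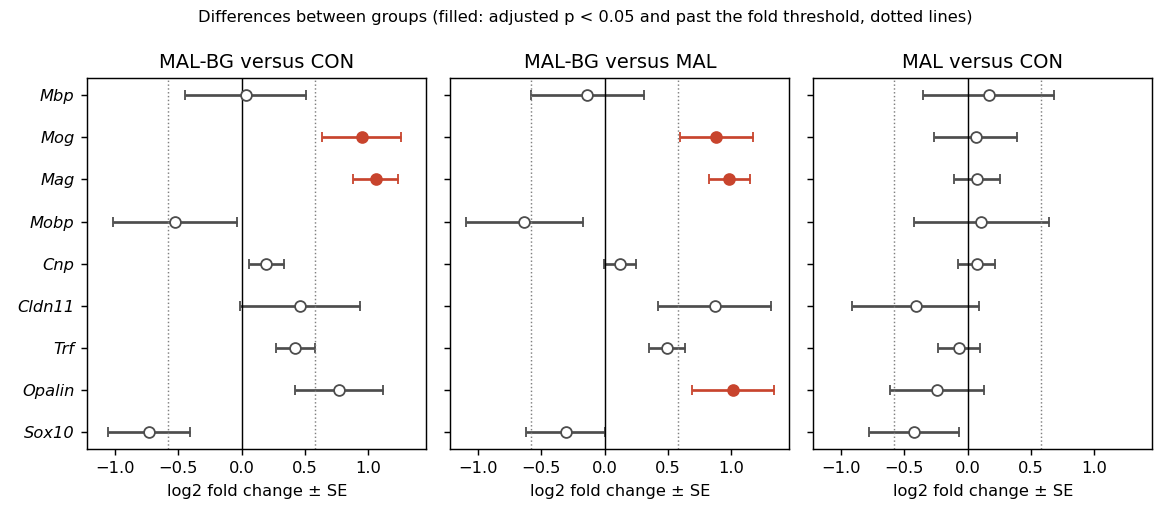
Log2 fold changes of the 9 genes with their SE for MAL-BG versus CON, MAL-BG versus MAL and MAL versus CON, on the TMM scale, with filled points for called genes and dotted lines at the fold threshold of 0.58. Mag and Mog are called higher against both groups and Opalin against MAL, and no gene is called in MAL versus CON.

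A gene was called where its edgeR adjusted p was below 0.05 and its log2 fold change was beyond 0.58. By this rule 2 of the 9 genes were called higher and 0 lower in MAL-BG against CON, where 11.4% of all genes tested were called higher and 21.7% lower. Against MAL, 3 of 9 were called higher and 0 lower, beside 10.2% and 20.2% of all genes. The median log2 fold changes over the 9 genes were 0.42 and 0.49, and those over all genes tested were -0.04 and -0.03. On the microglia scale, where the median of all genes moved to -1.11 against CON, 4 of 9 genes were called, all lower (Mobp, Cnp, Trf and Sox10), beside 77.6% of all genes tested called lower and 0.281% higher on that scale. The 2 comparisons share the MAL-BG libraries, so they are not independent.

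Malnutrition without the bacterial gavage moved none of the 9 genes by any call. MAL against CON gave edgeR adjusted p = 0.999 for each gene, and the smallest unadjusted p among them was 0.25, for Sox10 (log2 fold change -0.42, SE 0.354). The log2 fold changes lay between -0.42 and 0.17. Over all genes tested, edgeR called 0 in this comparison, with 212 genes (1.46%) at an unadjusted p under 0.05, and DESeq2 called 0, with 241.

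Within groups, the 9 genes did not vary as one block. Each library's log2 CPM was taken relative to its group mean, and Pearson's r was computed over the 16 libraries. These are descriptions, since all genes of a library share its depth and scaling. Of 36 gene pairs, 3 had r of at least 0.6 and 21 had r below 0. The strongest pair was Mbp and Mobp, with r = 0.981 (Spearman's rho 0.985, and r = 0.971 without the 2 libraries farthest from the median). The value was 0.989 in MAL and 0.98 in MAL-BG. The other close pairs joined Cldn11 to Opalin (r = 0.742) and Cldn11 to Mog (r = 0.672). Mog and Opalin had r = 0.597. Mbp and Mog, both textbook myelin markers, had r = -0.401.

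**Figure D3:**
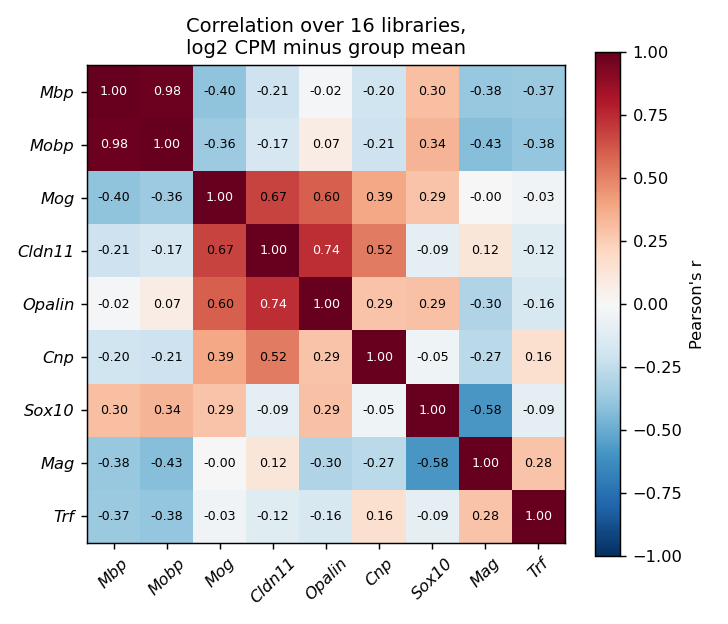
Pearson's r between the 9 genes over 16 libraries, from log2 CPM minus the group mean. Mbp and Mobp form one close pair at 0.98, Mog, Cldn11 and Opalin form a looser trio, and Mag and Sox10 have the lowest value at -0.58.

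Different genes of the lineage accompanied each of these patterns. They were looked up after the values were seen, among 63 tested genes on 5 lists of the oligodendrocyte lineage. Mbp and Mobp were followed by Bcas1, a marker of oligodendrocytes that are starting to myelinate (r = 0.994 with Mbp), and Plekhb1 (r = 0.941 with Mbp). Across all genes tested, the next for Mbp were the kinesin heavy chains Kif5a (r = 0.913) and Kif5c (r = 0.887), motors that carry cargo along microtubules. Of the summed lists, the neuron list had the highest r with Mbp (0.61) and with Mobp (0.64). For Mbp, r was 0.557 with the precursor list and 0.423 with the myelin structure and adhesion list. The part of neurons in these values was not tested. Mog was followed by Fa2h, which makes the hydroxylated fatty acids of myelin lipids (r = 0.908) and by the receptor gene Gpr37 (r = 0.865). Gpr37 was also the nearest lineage gene to Opalin (r = 0.852) and to Cldn11 (r = 0.806). Mag, Cnp, Trf and Sox10 had 0 of the 63 at r of at least 0.8.

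Mag and Trf were also set beside the microglia genes. The microglia list of 16 genes summed to 27166 ± 6152 CPM for CON, 28513 ± 5967 for MAL and 55920 ± 6770 for MAL-BG, with 11 of 16 called higher against CON. Csf1r, the receptor microglia depend on for survival and an abundant gene of the list, differed from CON by 0.37 on the log2 scale (edgeR adjusted p = 0.255). Within groups, Mag had r = 0.703 with the summed microglia list, 0.42 without the 2 farthest libraries, and r = -0.816 with the summed myelin lipid list. Negative values were not particular to myelin. Mag had r = -0.743 with the choroid plexus list and -0.71 with the myelin structure and adhesion list. The value was -0.659 with the endothelium list, -0.659 with the fibroblast and meninges list and -0.658 with the astrocyte list. It was positive with the transcription factor list (0.146) and the neutrophil and monocyte list (0.17). Among all genes the nearest to Mag were Sat1 (r = 0.952), Zfp36 (r = 0.95) and Uimc1 (r = 0.95). Trf had r = 0.605 with the microglia list and r = 0.635 with the library total, and its nearest gene was Glmp, which encodes a lysosomal membrane protein (r = 0.93). With the neutrophil and monocyte list its r was 0.067, and with every other list it was negative. The values were -0.751 with the myelin structure and adhesion list, -0.578 with the endothelium list and -0.378 with the choroid plexus list. Cd22, a gene that lies beside Mag on the same strand, was at 11.3 CPM in MAL-BG and 10.9 CPM in CON (log2 fold change 0.05, adjusted p = 0.897) and had r = 0.391 with Mag. The cell of origin of the Mag and Trf reads was not tested.

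**Figure D4:**
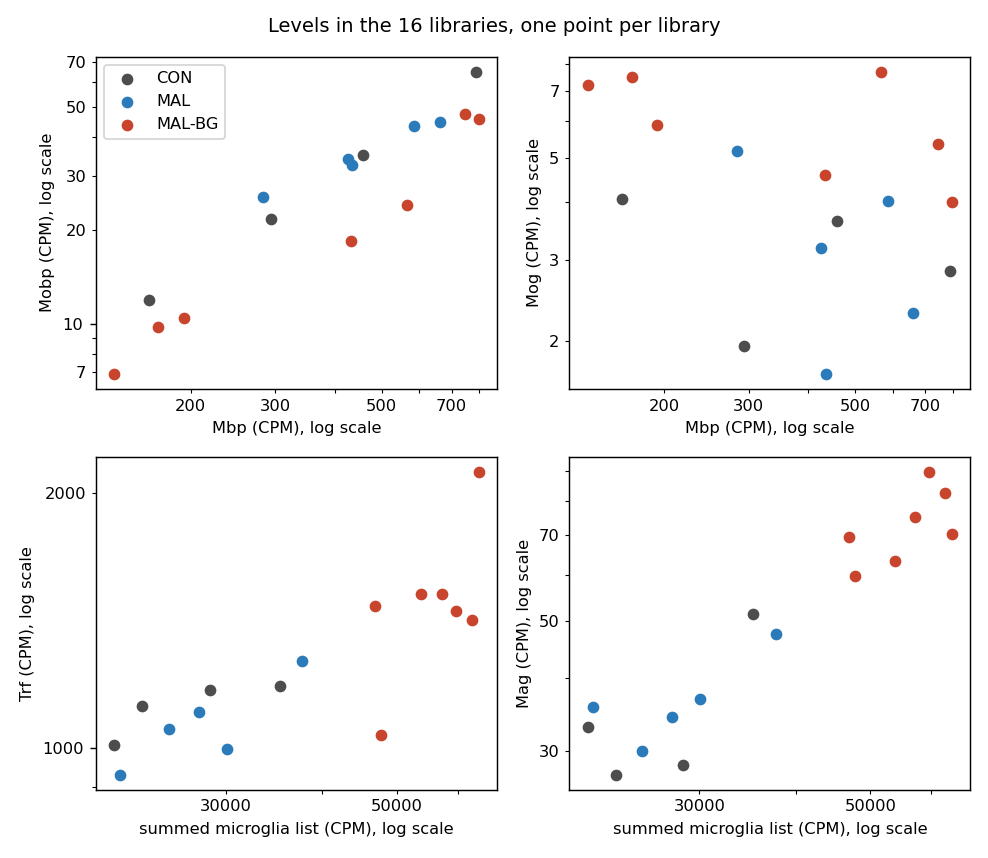
Levels in the 16 libraries on log axes (CPM), for Mbp against Mobp, Mbp against Mog, and the summed microglia list against Trf and against Mag, with one point per library coloured by group. Mobp rises with Mbp in each group, with MAL-BG lower in Mobp at a given level of Mbp, Mog does not follow Mbp, and the MAL-BG libraries are highest in both Mag and the microglia list.

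By a measure of likeness to the mean deviation of all 9 genes over the 16 libraries, the 8 closest other genes were Baiap3 (r = 0.809), Cdo1 (0.787), Angptl4 (0.775), Chl1 (0.766), Cep76 (0.763), Slc35f2 (0.763), Pawr (0.755) and Tram1l1 (0.751). None of them stood on the lineage lists.

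The rest of the lineage did not move one way either. Over the 5 lists, 9 of 63 tested genes were called higher and 16 lower in MAL-BG against CON, and 13 and 16 against MAL, beside the shares of all genes given above. On the microglia scale, 0 were called higher and 40 of 63 lower against CON, where 77.6% of all genes tested were called lower. For the myelin structure and adhesion list, 4 of 19 were called higher against CON and 1 lower. Among those higher, Pllp rose by 1.20 on the log2 scale, from 13.9 CPM in CON to 31.9 CPM in MAL-BG (SE 0.277, edgeR adjusted p = 0.00252), and the junction gene Jam3 rose by 0.77. Nfasc, which encodes the adhesion protein neurofascin of glia and of neuronal nodes, was lower (-2.08, adjusted p = 0.000421). The list's median was 0.27.

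In the myelin lipid list, 2 of 10 were called higher against CON, Fa2h (0.92) and the fatty acid elongase gene Elovl1 (0.77), and 1 lower, Elovl7 (-1.62). Among the transcription factors, 1 of 7 tested was called higher, Tcf7l2 (1.04), and 2 lower, Olig1 (-0.71) and St18 (-1.42). Myrf, which drives myelin genes together with Sox10, had a log2 fold change of 0.41 (adjusted p = 0.251). In the enzymes and receptors list, 2 of 15 tested were called higher, Klk6 (2.29, from 0.233 CPM in CON to 1.20 CPM in MAL-BG) and the calcium channel gene Itpr2 (1.29), and 4 lower, Car2 (-1.70), Ptgds (-1.68), Il33 (-0.98) and Bmp4 (-1.77).

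Of the precursor genes, 0 of 12 tested were called higher and 8 lower against CON, with a median of -1.44. Pdgfra, the growth factor receptor that marks oligodendrocyte precursors, fell from 9.97 CPM in CON to 3.77 CPM in MAL-BG (log2 fold change -1.40, SE 0.354, edgeR adjusted p = 0.00446). Ptprz1 (-2.11), Vcan (-1.76), Lhfpl3 (-2.37), Cspg5 (-2.01), Sox6 (-1.07), Xylt1 (-1.33) and Tnr (-2.44) were also lower. Cspg4, which encodes NG2 and is shared with pericytes, was at 51.0 CPM in MAL-BG and 47.5 CPM in CON. Several of these genes are expressed by astrocytes or neurons as well. The astrocyte list summed to 1692 ± 599 CPM in CON and 815 ± 416 in MAL-BG (7 of 12 called lower), with Clu at -1.90 (adjusted p = 0.00188). The neuron list summed to 481 ± 234 and 83.8 ± 41.5 CPM (14 of 15 called lower), with Camk2a at -4.28 and Meg3 at -1.78. The part of these cell types in the lineage values was not tested. In MAL against CON, 0 of the 63 lineage genes were called by edgeR, with 1 at an unadjusted p under 0.05.

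**Figure D5:**
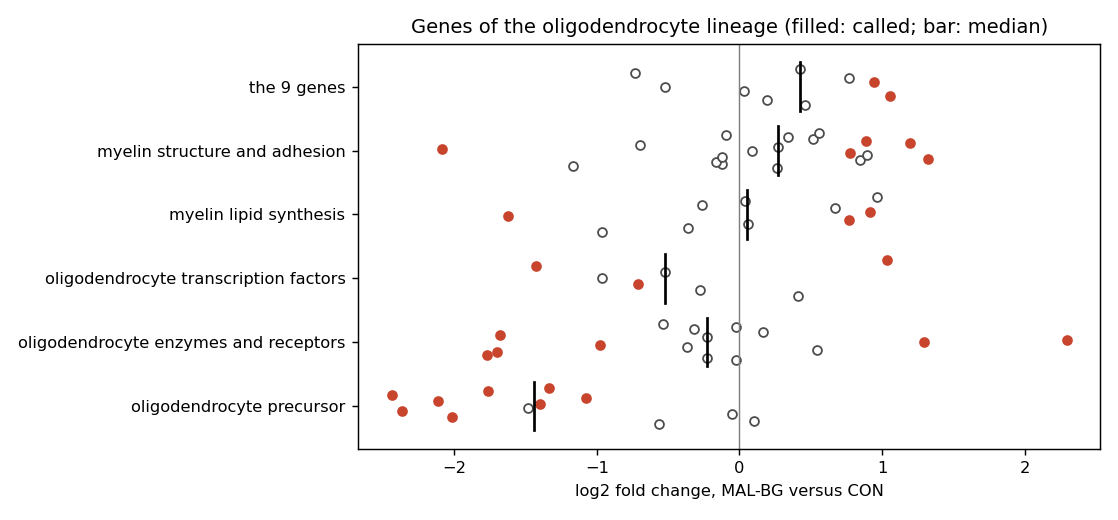
Log2 fold change (TMM scale) in MAL-BG versus CON for the 9 genes and for the tested genes of each of the 5 lineage lists, with one point per gene, filled where called, and a bar at the list's median. The medians run from 0.42 for the 9 genes to -1.44 for the precursor list, which has 8 of its 12 genes called lower.

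Other cell types also differed between the groups. Ttr and Enpp2, the most abundant choroid plexus genes, had log2 fold changes of -2.28 and -2.56 against CON. The endothelium list summed to 3001 ± 1046 CPM in CON and 4046 ± 1504 in MAL-BG (2 of 12 called higher), with Bsg at 0.25 (adjusted p = 0.478) and Cldn5 at 1.58 (adjusted p = 0.00522). In the meningeal list, Igf2 was at -2.41 (adjusted p = 0.000425) and Pdgfrb at 0.03 (adjusted p = 0.961). The neutrophil and monocyte list, at 190.6 to 326 CPM in CON, ran from 253 to 11857 CPM in MAL-BG, with S100a8 at 4.39 and S100a9 at 4.21 on the log2 scale. Without MAL-BG replicate 5, which held the highest value of that list, Mag (1.05) and Mog (0.86) were still called higher against CON, as was Opalin against MAL (0.97). That fit kept MAL-BG replicates 7, 2, 1 and 4, at 2698, 1844, 731 and 616 CPM of that list, above every CON and MAL library. It therefore does not show how the calls depend on that list. No gene of any list was at 0 over a whole group. These lists differed in the same comparisons in which Mag, Mog and Opalin were called, and their part in those calls was not tested.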

How the data were processed

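The authors aligned reads with STAR to the mouse genome (mm10, GRCm38), assigned them to genes by HTSeq, and deposited raw counts for 16 libraries in 1 table. Its columns name each library's group and a running number that matches no sample label, so libraries are named here by group and that number. A gene was tested if over 10 reads were counted for it in 4 or more libraries (14565 of 24421). The 3 groups were fitted together with edgeR 4.0.16 (TMM scaling, quasi-likelihood test, Benjamini-Hochberg adjustment over all genes tested, R 4.3.3), and a call needed an adjusted p below 0.05 and an absolute log2 fold change above 0.58. DESeq2 1.42.0, other scalings, other filters, thinning and leaving out each library were tried as alternatives. The scripts were tested on simulated data. CPM used TMM library sizes, and log2 CPM a prior count of 2. Exon lengths came from GENCODE M21 and promoters and positions from RefSeq (GRCm38.p6). The members and lists were chosen with earlier results of these data known. The genes named were the 9 members, genes of the lineage lists, the 2 most abundant genes of each list for another cell type and the 8 genes most like the members' mean. Other genes named were chosen after their values were seen. Some genes that this rule covers are not reported here. All libraries differed by more than counting noise and were kept as separate.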

Additional observations from a re-analysis of the deposited data

Results flagged for a closer look

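In MAL-BG, Opalin replicate 2 lay at 1.07 CPM, while the group's median was 2.24 CPM. Its gap to the nearest library took 0.683 of the group's range, which is beyond Dixon's critical value for 7 samples. Chance sets off this criterion in about 1 in 20 groups, and 27 groups (9 genes in 3 groups) were examined. The value rests on 14 counts.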

How the results depend on the processing

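No paired analysis was possible because the columns carry running numbers that match no sample label, and no batch term could be fitted because no library's batch is labelled. The scaling to microglia genes changed most: it moved the all-gene median log2 difference to -1.11 against CON and -1.02 against MAL, and gave 4 called members (all lower) and 40 called lineage genes (all lower) against CON, in place of 2 and 25, where 77.6% of all genes were called lower. On it, the differences from CON were -1.01 for Mbp, -0.094 for Mog, -0.91 for Cnp, -0.70 for Cldn11, -0.66 for Trf and -0.34 for Opalin, and those from MAL were -0.20 for Mog, -9.6e-05 for Mag, -0.88 for Cnp, -0.18 for Cldn11, -0.51 for Trf and -0.015 for Opalin, each opposite in sign to the TMM value. Cnp in MAL against CON turned to -0.032. Scaling by total counts moved the median to -0.17 and -0.16, turned Mbp against CON to -0.095 and Cnp against MAL to -0.014, and took the higher share of all calls from 34.4% to 22.4% against CON and from 33.4% to 20.1% against MAL. Which scaling is nearer the cells' content was not tested.

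With each library left out in turn, 1 to 4 members were called against CON and 1 to 4 against MAL. The count against CON was 1 without CON replicate 2 or 3 and 4 without CON replicate 4, and that against MAL was 1 without MAL replicate 1. Lineage calls ran from 20 to 32 and from 21 to 30. Of all genes tested in these fits, 9.17% to 13.7% were called higher and 18.3% to 23.6% lower against CON. Against MAL, the shares were 8.53% to 12.1% higher and 16.9% to 21.7% lower. Mag was called in 16 of 16 of these fits in both comparisons, Mog in 14 and 15. Uncalled log2 fold changes that changed sign ran from -0.26 to 0.49 for Mbp against CON and from -0.35 to 0.064 against MAL. In MAL against CON they ran from -0.11 to 0.64 for Mbp, -0.16 to 0.23 for Mog, -0.036 to 0.31 for Mag, -0.18 to 0.65 for Mobp, -0.023 to 0.19 for Cnp, -0.74 to 0.59 for Cldn11 and -0.42 to 0.14 for Opalin. The 2-group fit called Cldn11 against MAL (0.87, adjusted p = 0.0258). Low counts limit Opalin, Mog and Sox10.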
